A study of Drosophila melanogaster with 48 samples.

Results

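Translation initiation factors other than the cap-binding eIF4E and eIF4G families were followed through the induced maturation of the male germ line in Drosophila melanogaster testes. The members were all genes whose symbol in the deposited files began with eIF but not with eIF4E or eIF4G, and there were 36 of them among 12220 genes. The files spell some genes differently, so that 2 members qualified by a lysate symbol alone (CG7483 and eEF5) and 16 by a gradient symbol alone. By role they were 2 genes of the eIF1 group, 4 of the eIF2 group, 5 subunits of eIF2B, 16 eIF3 genes, 5 of the eIF4 helicase group and 4 subunit joining and other factors. Of these, 35 were listed in at least 1 lysate library and 36 in at least 1 gradient library. 29 were listed in all 12 lysate libraries, and 18 in all 36 gradient libraries. eIF4B had no entry in the lysate files used here.

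The testes came from flies of genotype bam-/-;hsBam, which lack the differentiation gene bam apart from a heat-inducible copy. As background, bam mutant testes accumulate early germ cells, and heat shock supplies Bam and starts their differentiation as a cohort. Every library, the 0 h ones included, carried this genotype and came from pupae heat shocked for 30 min at 37 °C, after growth at 22 °C, and returned to 25 °C. QuantSeq reads, which tag the 3′ ends of polyadenylated RNA, were deposited for whole testis lysates at 0, 16, 24, 32, 48 and 72 h after the shock, and for 6 sucrose gradient pools at 24, 48 and 72 h, with 2 libraries a group. The pools were free RNA, small (40S) and large (60S) ribosomal subunits, single ribosomes (80S), 2-3 ribosomes, and heavier polysomes, called 4+ ribosomes. Time after the shock cannot be told apart from age or from recovery, and since the labels name no separate crosses, p-values measure the spread between the 2 libraries of a group. That spread was pooled over all lysate groups or over all gradient groups. At 0 h, the baseline of the lysate tests, the replicates agreed least among lysates (r = 0.845), so pooling can understate the spread there.

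Initiation of translation begins when eIF1, eIF1A, eIF3, eIF5 and the eIF2 complex with GTP and initiator tRNA assemble on the small ribosomal subunit. eIF2B recharges eIF2 with GTP, the helicase eIF4A with its cofactors eIF4B and eIF4H unwinds the mRNA leader, and eIF5B helps the large subunit to join. The Drosophila genome holds second copies of several of these genes, some of them known for expression in the testis. Pairs studied here were eIF3d2 and eIF3d1, eIF3f2 and eIF3f1, eIF3g2 and eIF3g1, and eIF4H2 and eIF4H1, in which the copy numbered 2 is called the testis-type copy and the other the general copy.

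The genes of a pair lay apart in the genome (dm6). eIF3d2 is at chromosome 3R, 12192703 to 12195011 on the minus strand, with a coding length of 1653 nt, and eIF3d1 at 3R, 23680039 to 23682317 on the plus strand, with 1680 nt. eIF3f2 is at 2R, 6200853 to 6201956 on the plus strand, with 858 nt, and eIF3f1 at 3R, 4712882 to 4714182 on the minus strand, with 840 nt. eIF3g2 is at 3R, 20408265 to 20409243 on the plus strand, with 819 nt, and eIF3g1 at X, 2609247 to 2610336 on the minus strand, with 807 nt. eIF4H2 is at 3R, 30726087 to 30728052 on the plus strand, with 1377 nt, and eIF4H1 at X, 16448665 to 16454972 on the plus strand, with 1164 nt. All 4 testis-type copies were autosomal, and the general copies eIF3g1 and eIF4H1 were X-linked.

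Lysate libraries held 12041430 to 20668631 listed reads and gradient libraries 445049 to 9568651. Several libraries stood apart. The 0 h replicates correlated at r = 0.845 across genes (log2 of CPM plus 1), against at least 0.953 in the other lysate groups, and a single gene, CG18628, took 8.69% to 19.9% of reads at later times, against 36.5% and 34.8% at 0 h. Replicate 1 of 0 h listed none of 354 stop codons in a row on chromosome X that the other lysate libraries cover, and eIF2alpha, eIF4H1 and eIF5 lie there, so that their 0 h value rests on replicate 2, which has a shorter gap of 98 stop codons elsewhere on X. The second 60S library of 72 h held the fewest reads and 1870 genes. Spermatocyte markers summed to 1243 and 1279.8 scaled CPM at 48 h, against 42.8 and 41.7 at 0 h, and spermatid markers to 15122 and 15125 at 72 h, against 10.5 and 0 at 0 h. Early germ cell markers summed to 90.4 to 187 CPM with nos unlisted in every library, cyst cell markers to 85.9 to 285, muscle to 296 to 1201, fat body and haemocyte to 536 to 2059.5, and accessory gland to 1.76 to 756.

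Of the testis-type copies, eIF3d2, eIF3g2 and eIF4H2 were not listed in lysates before 48 h and rose at 48 h and 72 h, while eIF3f2 was present from the start. Levels are scaled CPM, a gene's reads relative to library size after scaling by trimmed means, and were not divided by length since each transcript yields 1 tag. eIF3d2, a copy of the eIF3 subunit that can bind the mRNA cap, had no entry at 0, 16, 24 and 32 h in either library. It stood at 3.64 and 3.42 scaled CPM at 48 h and at 79.2 and 93.7 at 72 h. All the 72 h and 48 h lysate libraries listed it and no earlier lysate library did. In the gradients 15 of 36 libraries listed it, replicate 2 of the 24 h 40S pool among them.

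eIF3g2, a copy of an eIF3 subunit that binds RNA and takes part in scanning, had no entry up to 32 h either. It reached 42.2 and 36.3 scaled CPM at 48 h and 163 and 154 at 72 h. eIF4H2, a copy of the helicase cofactor, followed the same course with no entry up to 32 h, 36.5 and 29.3 at 48 h, and 148 and 184 at 72 h. In each of the 3 genes both libraries of 72 h lay above both libraries of 48 h.

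The lowest level that the 0 h files list for a position was 1.56 to 1.69 scaled CPM. Over the upper of these values, the lower 72 h library was 47.0-fold higher for eIF3d2, 91.2-fold for eIF3g2 and 87.8-fold for eIF4H2. An unlisted gene whose reads are spread over several positions could exceed that level, so these folds are not lower bounds. The mean at 72 h was 24.5-fold that at 48 h for eIF3d2, 4.03-fold for eIF3g2 and 5.04-fold for eIF4H2. At 72 h the fitted log2 changes over 0 h were 6.66 for eIF3d2, 7.54 for eIF3g2 and 7.60 for eIF4H2. They depend on the value entered for an unlisted gene. Both 0 h libraries hold that entered value, so no spread was measured at 0 h and no SE or p-value is given. The spermatid markers, all 7 listed at 48 and 72 h and summing to 3185 and 2929 at 48 h, moved with these 3 genes, and the 8 spermatocyte markers were already at 756 and 800.4 at 32 h. Their part in the result was not tested. In whole testes, more cells of a type and more RNA per cell cannot be told apart.

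**Figure D1:**
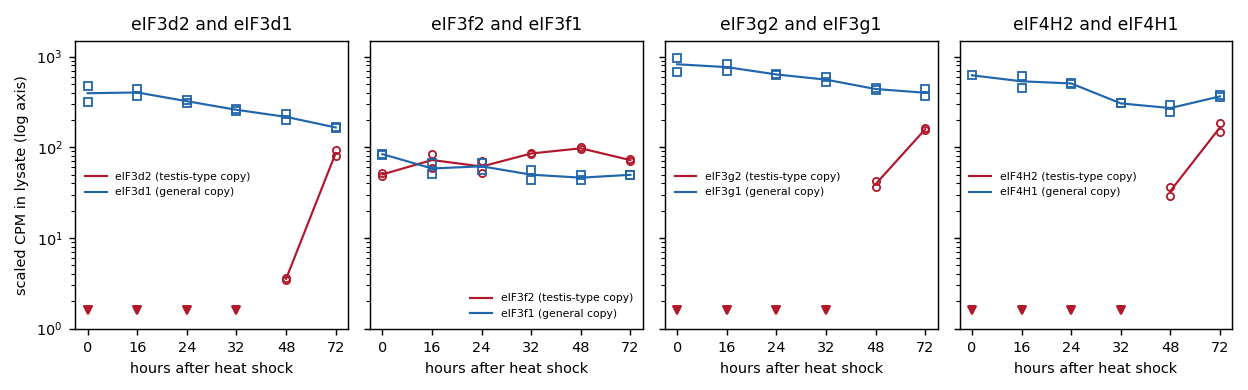
Scaled CPM (log axis) of the 4 testis-type copies and their general copies in the 12 lysate libraries against hours after heat shock, with the 6 times evenly spaced, a point per library and lines through the means. Triangles mark a gene with no entry. eIF3d2, eIF3g2 and eIF4H2 appear at 48 h, whereas eIF3f2 lies at 48.1 to 100.4 throughout.

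eIF3f2 went against the name of the group. Its levels, replicate 1 then 2, were 52.4 and 48.1 scaled CPM at 0 h, 85.3 and 59.4 at 16 h, 52.6 and 70.2 at 24 h, 84.5 and 86.4 at 32 h, 94.6 and 100.4 at 48 h, and 73.5 and 70.8 at 72 h. The 48 h libraries lay above both 0 h libraries and the rise passed the test (log2 change 0.96 ± 0.22, SE, adjusted p = 0.0055), whereas the 72 h difference of 0.52 ± 0.23 did not (adjusted p = 0.084). It passed at 72 h when libraries were scaled by total counts alone, at 0.70. Its general copy eIF3f1 had 83.2 and 85.03 at 0 h, 50.2 and 66.6 at 16 h, 56.1 and 67.3 at 24 h, 55.9 and 43.8 at 32 h, 49.3 and 43.1 at 48 h, and 49.4 and 49.9 at 72 h. Both 0 h libraries lay above every later one, and eIF3f1 fell at 32, 48 and 72 h (log2 change -0.75, -0.87 and -0.76). By total counts none of the 3 calls held. The 32 h call also ended without any one of the 4 libraries, the 48 h call without replicate 2 of 48 h, and the 72 h call without either 72 h library.

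The course of eIF3f2 over the 12 libraries was most like that of 140up, CG13748, Atat, CG14450 and abo among 9590 genes, with Pearson r of 0.947, 0.943, 0.929, 0.927 and 0.912. The libraries of a time share their stage, so r is a measure of likeness only. The r of eIF3f2 with the other testis-type copies was 0.199 for eIF3d2, 0.391 for eIF3g2 and 0.376 for eIF4H2.

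The general copies of the other pairs fell at 72 h, eIF3d1 and eIF3g1 under either scaling and eIF4H1 under trimmed means alone. eIF3d1 had 473 and 318 scaled CPM at 0 h, 441 and 364 at 16 h, 337 and 308 at 24 h, 266 and 252 at 32 h, 199 and 234 at 48 h, and 163 and 168 at 72 h. eIF3g1 had 979 and 671 at 0 h, 841 and 693 at 16 h, 641 and 632 at 24 h, 593 and 523 at 32 h, 452 and 427 at 48 h, and 364 and 436 at 72 h. For both genes the 32, 48 and 72 h libraries all lay below both 0 h libraries, and at 72 h eIF3d1 fell by 1.23 on the log2 scale (SE 0.21, adjusted p = 7.9e-04) and eIF3g1 by 1.03 (SE 0.20, adjusted p = 0.0021).

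eIF4H1 had 623 scaled CPM at 0 h in the single library that covers it, 451 and 619 at 16 h, 519 and 495 at 24 h, 305 and 305 at 32 h, 248 and 294 at 48 h, and 373 and 356 at 72 h. Its levels were thus lowest at 32 and 48 h. The log2 change was -1.03 at 32 h, -1.20 at 48 h and -0.77 at 72 h, each past the threshold, and the 32 h and 72 h calls ended with either library of that time left out. With 1 library at 0 h, the test assumes that this library varies as those of the other groups do. By total counts the changes were -0.51, -0.55 and -0.66 at 32, 48 and 72 h, and none passed (limma, adjusted p = 0.21, 0.11 and 0.076).

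As a share of the reads of a pair, the testis-type copy held a minority in 3 pairs and the majority in the eIF3f pair. eIF3d2 gave 32.7% and 35.8% of the eIF3d reads at 72 h, against 1.80% and 1.44% at 48 h. eIF3g2 gave 30.9% and 26.1% of eIF3g reads at 72 h, against 8.54% and 7.82% at 48 h, and eIF4H2 gave 28.4% and 34.04% of eIF4H reads at 72 h, against 12.8% and 9.07% at 48 h. eIF3f2 gave 59.8% and 58.6% of eIF3f reads at 72 h and 65.7% and 69.9% at 48 h, against 38.6% and 36.1% at 0 h. Each of these shares lay apart between the times compared, and no test was run on the shares themselves.

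Over all members, most calls in lysates came at 48 and 72 h, as they did over all genes. At 16 h and at 24 h no member passed the threshold, where 1.13% (0.542% higher, 0.590% lower) and 2.19% (1.08% higher, 1.10% lower) of all 10332 genes tested did. At an unadjusted p under 0.05 there were 2 and 4 members, and limma trend also called 0 at both times. Without replicate 2 of 0 h 8 and 14 members passed. At 32 h, 3 of 35 members tested were lower and 0 higher (eIF3b, eIF3f1 and eIF4H1), with 13.8% of all genes called (7.95% higher, 5.85% lower). At 16, 24 and 32 h the 35 include eIF3d2, eIF3g2 and eIF4H2, whose tests set entered values against entered values. By total counts 7 members were higher and 0 lower at 32 h. The 32 h count was 0 without either 32 h library, 2 without replicate 1 of 0 h and 13 without replicate 2 of 0 h.

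At 48 h 6 members rose and 11 fell of 35 tested, and at 72 h 6 rose and 13 fell. The rises include eIF3d2, eIF3g2 and eIF4H2, whose 0 h values were entered ones. Of the 31 tested that are not testis-type copies, 2 rose and 11 fell at 48 h, and 3 rose and 13 fell at 72 h. Among all genes 47.9% were called at 48 h (32.2% higher, 15.7% lower) and 48.5% at 72 h (35.5% higher, 13.0% lower). The members' called share of 17 and 19 of 35 was thus near the background, and their split leaned to lower where that of all genes leaned to higher. The median log2 change of the members was -0.17 at 48 h and -0.23 at 72 h, against 0.30 and 0.31 over all genes. The 0 h libraries listed 7061 and 7707 genes, so many of the 10332 tested held an entered value at 0 h. Such genes can hardly be called lower, which raises the share called higher and the median over all genes. Of the members, 29 and 32 were listed at 0 h, so the contrast with all genes was in part built in. Scaling by total counts alone moved the median of all genes to 1.02 and 0.49. It moved the members' split to 14 higher and 0 lower at 48 h and to 9 and 5 at 72 h. Under either scaling 12 and 13 of 35 members lay above the median of all genes. That was bound to hold, since a change of scaling moves all genes of a comparison nearly alike, and it is no check on scaling. At 48 h the count of 17 was 18 without replicate 1 of 0 h. At 72 h the count of 19 fell to 13 without replicate 1 of 0 h, to 9 without replicate 1 of 72 h and to 10 without replicate 2 of 72 h.

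**Figure D2:**
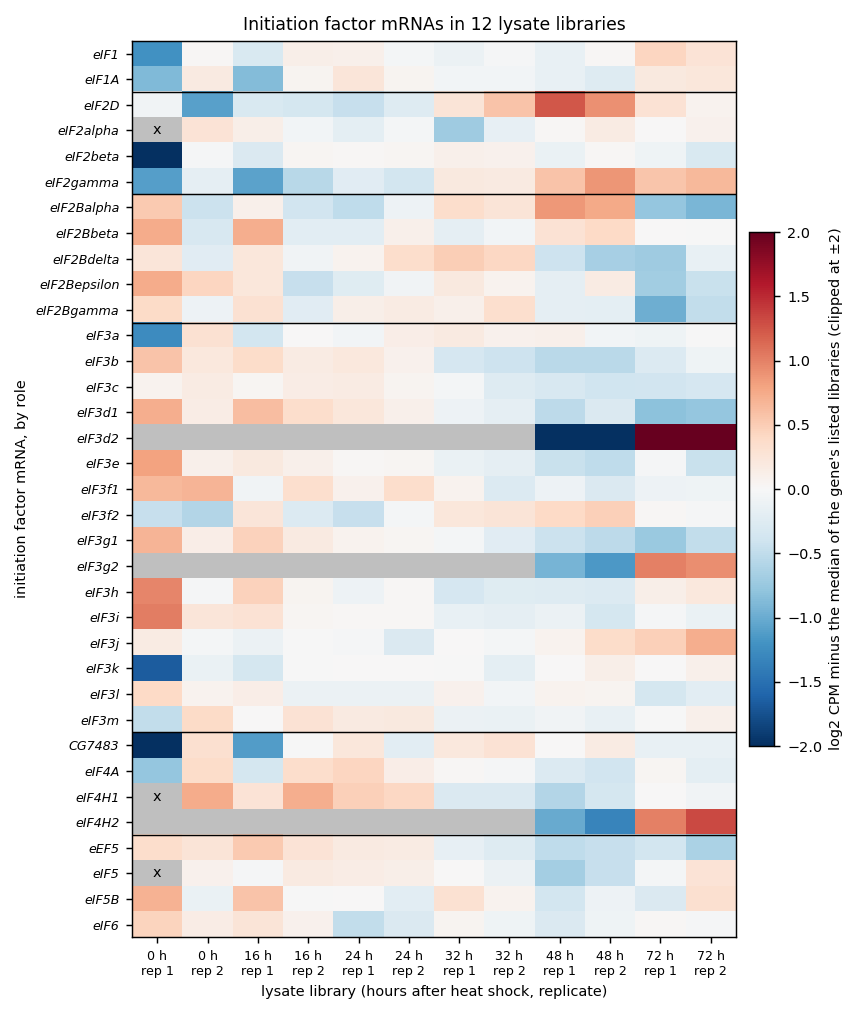
Log2 of the scaled CPM of each member in the 12 lysate libraries relative to the member's own median over the libraries that list it, grouped by role. Grey cells are unlisted and crosses mark the 3 X-linked genes that one 0 h library does not cover. Most general eIF3 genes are above their median at 0 h and below it at 48 h, and eIF3d2, eIF3g2 and eIF4H2 are grey up to 32 h.

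Over eIF3, the scaffold that recruits the small subunit to mRNA, most of the calls were falls under trimmed means but not under total counts. Of the 13 eIF3 genes that are not testis-type copies, 7 fell and 0 rose at 48 h, with a median log2 change of -0.74, and 8 fell and 1 rose at 72 h, with a median of -0.51. Of all genes, counting those entered at 0 h, 15.7% were lower and 32.2% higher at 48 h, and 13.0% lower and 35.5% higher at 72 h. When scaled by total counts alone 4 rose and 0 fell at 48 h and 2 rose and 2 fell at 72 h. Under either scaling 2 and 3 of the 13 lay above the median of all genes, a count that a change of scaling can hardly move. Those that fell at 72 h were eIF3d1, eIF3g1, eIF3f1, eIF3i (log2 change -0.71), eIF3e (-0.69), eIF3b (-0.58), eIF3l (-0.51) and eIF3c (-0.47). The calls on eIF3i, eIF3e, eIF3b, eIF3l and eIF3c each ended without any one of 2 or 3 single libraries of 0 h or 72 h. With 16 h as the baseline, chosen after seeing the data, 5 of the 13 fell and 0 rose at 48 h (median -0.40). At 72 h 3 fell and 1 rose (median -0.24). Of all 10332 genes, 1677 were then lower and 3228 higher at 48 h, and 1467 lower and 3634 higher at 72 h.

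Of the 5 general eIF3 genes that did not fall against 0 h, 1 rose and 4 did not pass at 72 h. eIF3j, a loosely bound subunit at the mRNA entry channel, had 238 and 206 scaled CPM at 0 h, 196 and 212 at 16 h, 211 and 174 at 24 h, 213 and 207 at 32 h, 223 and 273 at 48 h, and 295 and 351 at 72 h. The 72 h libraries lay above all others and eIF3j rose (log2 change 0.54 ± 0.18, SE, adjusted p = 0.031), a call that ended without replicate 2 of 0 h or of 72 h. eIF3k, a subunit at the edge of the complex, had 203 and 217 at 72 h, against 64.0 and 183 at 0 h, and its change of 0.96 ± 0.38 did not pass (adjusted p = 0.059). eIF3a and eIF3m, both parts of the octamer core, had log2 changes of 0.44 and 0.10, and eIF3h had 263 and 280.2 scaled CPM at 72 h, against 476 and 237 at 0 h, all without passing.

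Of the eIF2 group, the GTP-binding subunit was the one that changed at both late times. eIF2gamma had 31.9 and 60.7 scaled CPM at 0 h, 32.4 and 46.5 at 16 h, 58.2 and 53.0 at 24 h, 78.3 and 77.1 at 32 h, 102 and 126 at 48 h, and 101 and 108 at 72 h. The 32, 48 and 72 h libraries lay above all earlier ones, and eIF2gamma rose at 48 h (log2 change 1.38 ± 0.28, SE, adjusted p = 0.0030) and at 72 h (1.25 ± 0.29, adjusted p = 0.0053). eIF2D, which can load tRNA without GTP, rose at 48 h to 38.8 and 31.0, against 15.6 and 7.76 at 0 h (log2 change 1.63, adjusted p = 0.0022), and stood at 20.02 and 17.3 at 72 h (0.75, adjusted p = 0.10). eIF2alpha, the subunit that stress kinases phosphorylate, and eIF2beta, which binds eIF5 and eIF2B, did not pass at any time, with log2 changes of -0.23 and 0.81 at 72 h. The 2 libraries of 0 h differed widely for eIF2beta, at 118 and 461.

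Of the exchange factor eIF2B, 3 of the 5 subunits fell at 72 h (eIF2Bepsilon and eIF2Bgamma also by total counts) and 0 rose. Of all genes, again counting those entered at 0 h, 13.0% were lower and 35.5% higher. None of the 5 lay above the median of all genes, a place that a change of scaling can hardly move. The catalytic subunit eIF2Bepsilon had 35.1 and 28.3 scaled CPM at 0 h, 24.6 and 15.2 at 16 h, 17.8 and 20.03 at 24 h, 24.1 and 22.0 at 32 h, 18.5 and 23.5 at 48 h, and 12.9 and 15.5 at 72 h. eIF2Bgamma, its partner in the catalytic subcomplex, had 83.8 and 59.8 at 0 h, 79.2 and 54.9 at 16 h, 69.9 and 72.2 at 24 h, 68.9 and 80.6 at 32 h, 56.7 and 55.9 at 48 h, and 32.6 and 45.8 at 72 h. Both subunits had their 72 h libraries below both 0 h libraries.

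eIF2Balpha, a regulatory subunit, took another course, with 129 and 66.7 at 0 h, 95.8 and 68.6 at 16 h, 63.0 and 83.8 at 24 h, 114 and 108 at 32 h, 163 and 151 at 48 h, and 52.5 and 47.6 at 72 h. It was highest at 48 h and lowest at 72 h. At 72 h the log2 changes over 0 h were -1.17 ± 0.30 for eIF2Bepsilon (adjusted p = 0.0092), -0.88 ± 0.27 for eIF2Bgamma (adjusted p = 0.021) and -0.90 ± 0.32 for eIF2Balpha (SE, adjusted p = 0.040). Each of the 3 calls ended without 1 or more single libraries of 0 h or 72 h, replicate 1 of 72 h being among them for all 3. Of the subunits not called, eIF2Bbeta had 46.3 and 46.1 at 72 h, against 77.0 and 37.0 at 0 h, and eIF2Bdelta 65.1 and 96.4 at 72 h, against 127 and 91.9 at 0 h. With 16 h as the baseline, 1 of the 5 subunits fell at 72 h and 0 rose (median -0.52). Of all 10332 genes 1467 were then lower and 3634 higher.

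The eIF1 group guards start codon choice. eIF1 had 112 and 260.1 scaled CPM at 0 h, 208 and 278 at 16 h, 277 and 249 at 24 h, 236 and 254 at 32 h, 232 and 260.4 at 48 h, and 347 and 311 at 72 h. The 72 h libraries lay above all others, and eIF1 rose (log2 change 0.95 ± 0.32, SE, adjusted p = 0.035), but the change was 0.35 without replicate 1 of 0 h and did not pass there, nor without either 72 h library. eIF1A had 378 and 386 at 72 h, against 179.98 and 373 at 0 h, a change of 0.56 that did not pass.

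Among the helicases and the joining factors, eIF4A was the most abundant member, at 2136 and 1817 scaled CPM at 72 h, against 1213 and 2678 at 0 h, with no call at any time. CG7483, the fly eIF4AIII of the exon junction complex, had 70.3 and 70.0 at 72 h, against 15.1 and 96.8 at 0 h. eIF5, the GTPase-activating partner of eIF2, had a log2 change of -0.65 at 48 h and of 0.03 at 72 h. Its 48 h call rests on 1 library at 0 h, assumed to vary as the other groups do, and ended without either 48 h library and by total counts. eIF6, which keeps large subunits from joining, had a log2 change of -0.48 at 48 h that passed under trimmed means, was 0.24 by total counts, and did not pass without replicate 1 of 0 h or either 48 h library. eIF5B, at 51.4 and 78.5 at 72 h, against 102 and 57.7 at 0 h, did not pass at any time.

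eEF5, deposited under its older name eIF-5A and now counted as an elongation factor, had 947 and 884 scaled CPM at 0 h, 1068 and 896 at 16 h, 839.9 and 827 at 24 h, 661 and 619.5 at 32 h, 519 and 538 at 48 h, and 574 and 477 at 72 h. All libraries from 32 h on lay below all earlier ones, and eEF5 fell by 0.81 at 72 h (SE 0.15, adjusted p = 0.0016). Of the 12 elongation and release factors as a list, eEF5 among them, 1 rose and 3 fell at 72 h (2 and 2 by total counts), with a median log2 change of 0.15, where 35.5% of all genes were higher and 13.0% lower, with a median of 0.31. HBS1, a ribosome rescue factor, rose by 1.29, and eEF1beta and eEF1delta, exchange factors for elongation, fell by 1.03 and 0.55. Of 8 regulators of initiation tested, 2 rose and 0 fell at 72 h, with a median of 0.26, which is near that of all genes. They were DENR, which aids reinitiation (1.07), and Paip2, an inhibitor of poly(A)-binding protein (2.18).

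In the gradients, mRNAs lay further into the polysomes than the median gene for 24 of 36 members at 24 h and at 48 h and for 29 at 72 h. So did 9, 10 and 9 of the 12 elongation and release factors at those times, with a median log2 change of 0.77 at 72 h. The 36 members include eIF3d2, eIF3g2 and eIF4H2, which had no entry in the free or 4+ ribosome pools at 24 h. eIF3d2 had none there at 48 h either. eIF6 was counted with all its reads, 67.2% of them over 500 nt past its annotated end. At 72 h eIF1, eIF1A and eIF3k were lower in 4+ ribosomes. Values in a pool are scaled to that pool's own library, so they are not amounts of RNA, and a change is that of the 4+ ribosome pool over the free pool. At 24 h, 1 of 36 members tested was higher in 4+ ribosomes and 1 lower, with 5.81% of all 10777 genes called (1.29% higher, 4.52% lower). At 48 h, 2 were higher and 3 lower, with 10.9% called (2.15% higher, 8.70% lower), and at 72 h 7 were higher and 3 lower, with 26.5% called (8.17% higher, 18.4% lower). The members' median log2 change was 0.36, 0.35 and 0.92 at 24, 48 and 72 h, against -0.44, -0.21 and -0.13 over all genes. The -0.44 at 24 h is the value of a gene unlisted in both pools. That median was thus set by entered reads and is no measured polysome loading. The 29 members above the median of all genes at 72 h numbered the same under total counts. That count can hardly move, since a change of scaling shifts all genes of a comparison nearly alike. By total counts alone the median of all genes was 0.69 at 72 h and 26 members were higher and 2 lower, with 12 higher and 1 lower at 24 h and 16 higher and 3 lower at 48 h. The 72 h count of 10 fell to 4 without replicate 1 of the free pool or of the 4+ pool, and was 19 without the shallow 60S library. At 24 h the count of 2 was 1 without any one of the 4 libraries compared, and at 48 h the count of 5 was 2 or 3 without any one.

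**Figure D3:**
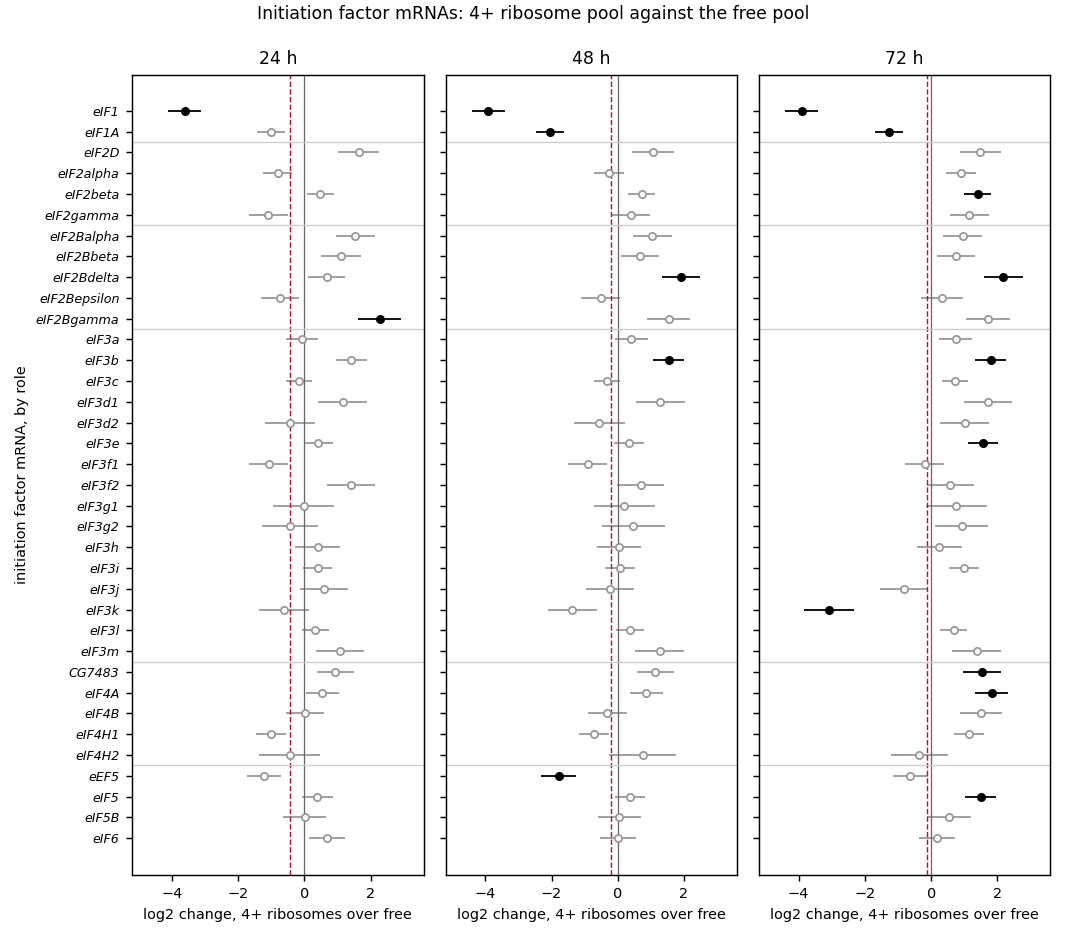
Log2 change of each member in the 4+ ribosome pool over the free pool at 24, 48 and 72 h, with bars of 1 SE from the limma fit. Filled black points passed the adjusted p threshold of 0.05 and the dashed red line is the median of all genes. At 24 h that line lies at the value of a gene unlisted in both pools. eIF1 is far to the left at each time, and most members are right of the red line at 72 h.

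eIF1 mRNA was scarce in heavy polysomes. It had 41.9 and 67.8 scaled CPM in 4+ ribosomes, against 578 and 736 in the free pool, at 24 h. At 48 h the values were 67.7 and 59.4 in 4+ ribosomes and 1088 and 842 in the free pool, and at 72 h 72.1 and 73.9 in 4+ ribosomes and 1157 and 1041 in the free pool. Both pools lay far apart at each time, and eIF1 was lower in 4+ ribosomes by log2 changes of -3.61, -3.91 and -3.91 (SE 0.49 at 72 h, adjusted p = 1.9e-06), calls that held without any one library. Of its scaled CPM summed over the 6 pools, 2.59%, 2.67% and 2.76% was in 4+ ribosomes and 31.4%, 40.5% and 41.5% in the free pool at 24, 48 and 72 h.

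eIF1A had 158 and 175 scaled CPM in 4+ ribosomes, against 340.3 and 472 in the free pool, at 72 h (log2 change -1.27 ± 0.41, SE, adjusted p = 0.023), and was lower at 48 h also (-2.05). The 72 h call ended without replicate 2 of the free pool or either 4+ library, and by total counts. Its largest mean share at 72 h was in 2-3 ribosomes, at 30.7%. eIF3k had 12.01 and 162 in 4+ ribosomes, against 436 and 334 in the free pool, at 72 h, so that the fitted change of -3.09 was -1.23 without replicate 1 of 4+ ribosomes and no longer passed. The coding regions of eIF1, eIF1A and eIF3k are 330, 444 and 666 nt long. That of eIF3j, which was not called lower at 72 h, is 708 nt long, and a link between length and loading was not tested. eEF5, at 477 nt, was lower in 4+ ribosomes at 48 h (log2 change -1.78), a call that ended without replicate 2 of the free pool or either 4+ library, and did not pass at 72 h (-0.63).

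The 7 members called higher in 4+ ribosomes at 72 h came from 5 of the 6 role groups. eIF2Bdelta, a regulatory subunit of eIF2B, had 80.8 and 91.8 scaled CPM in 4+ ribosomes, against 19.5 and 18.4 in the free pool, at 72 h (log2 change 2.18 ± 0.60, SE, adjusted p = 0.0071). eIF4A had 3606 and 2948 in 4+ ribosomes, against 619 and 1365 in the free pool (1.83 ± 0.50, adjusted p = 0.0076). eIF3b, the eIF3 subunit that binds eIF3g and eIF3i, had 388 and 387 in 4+ ribosomes, against 118 and 105 in the free pool (1.80 ± 0.46, adjusted p = 0.0044), and passed at 48 h too (1.53). All 3 genes had both 4+ libraries above both free libraries, and the eIF3b call at 72 h held without any one library while those on eIF2Bdelta and eIF4A ended without replicate 1 of the free pool, and that on eIF4A also without replicate 1 of the 4+ pool.

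eIF3e, a subunit of the eIF3 core, had 1412 and 892 in 4+ ribosomes, against 258 and 554 in the free pool, at 72 h (log2 change 1.57 ± 0.45, SE, adjusted p = 0.0094), also without overlap. Called with smaller changes were CG7483 (1.53), eIF2beta (1.40) and eIF5, which had 159 and 203 in 4+ ribosomes and 70.1 and 57.8 in the free pool. At 24 h the member higher in 4+ ribosomes was eIF2Bgamma, with 157 and 116 in 4+ ribosomes and 31.8 and 24.2 in the free pool (2.27), and at 48 h they were eIF2Bdelta (1.92) and eIF3b. These calls at 24 and 48 h each ended without any one of the 4 libraries compared. Among the calls at 72 h, those on eIF3e, CG7483, eIF5 and eIF2beta each ended without 2 or more single libraries.

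The pool with a member's largest mean share was 4+ ribosomes for 9 of 34 members listed at 24 h, 11 of 36 at 48 h and 23 of 36 at 72 h. Over all genes the 4+ pool led for 20.2%, 19.0% and 24.6% at those times. For eIF4H1 the difference between the 4+ and the free pool was not the same at 72 h as at 24 h. Its 4+ libraries had 275 and 257 scaled CPM, against 566 and 507 in the free pool, at 24 h, and 432 and 678 in 4+ ribosomes, against 217 and 276 in the free pool, at 72 h. The order of the pools was thus turned round without overlap at either time. The change over the free pool differed by 2.16 ± 0.63 on the log2 scale between 72 h and 24 h (SE, adjusted p = 0.036). It was the 1 member of 36 that passed this test, where 6.40% of all genes did (0.659% higher, 5.74% lower), and the call ended with any one of the 8 libraries left out.

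eIF4H1 was also spread over the light pools in an uneven way at the earlier times. At 24 h its 40S libraries had 1484 and 1399 scaled CPM and its 60S libraries 1361 and 1233, or 32.3% and 29.0% of its sum over the pools. At 48 h the 60S libraries alone had 1052 and 1018, or 39.8% of the sum, and at 72 h the 4+ pool led with 32.6%. At 72 h one 60S library was the shallow one, where eIF4H1 had 98.2, against 293 in the other.

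**Figure D4:**
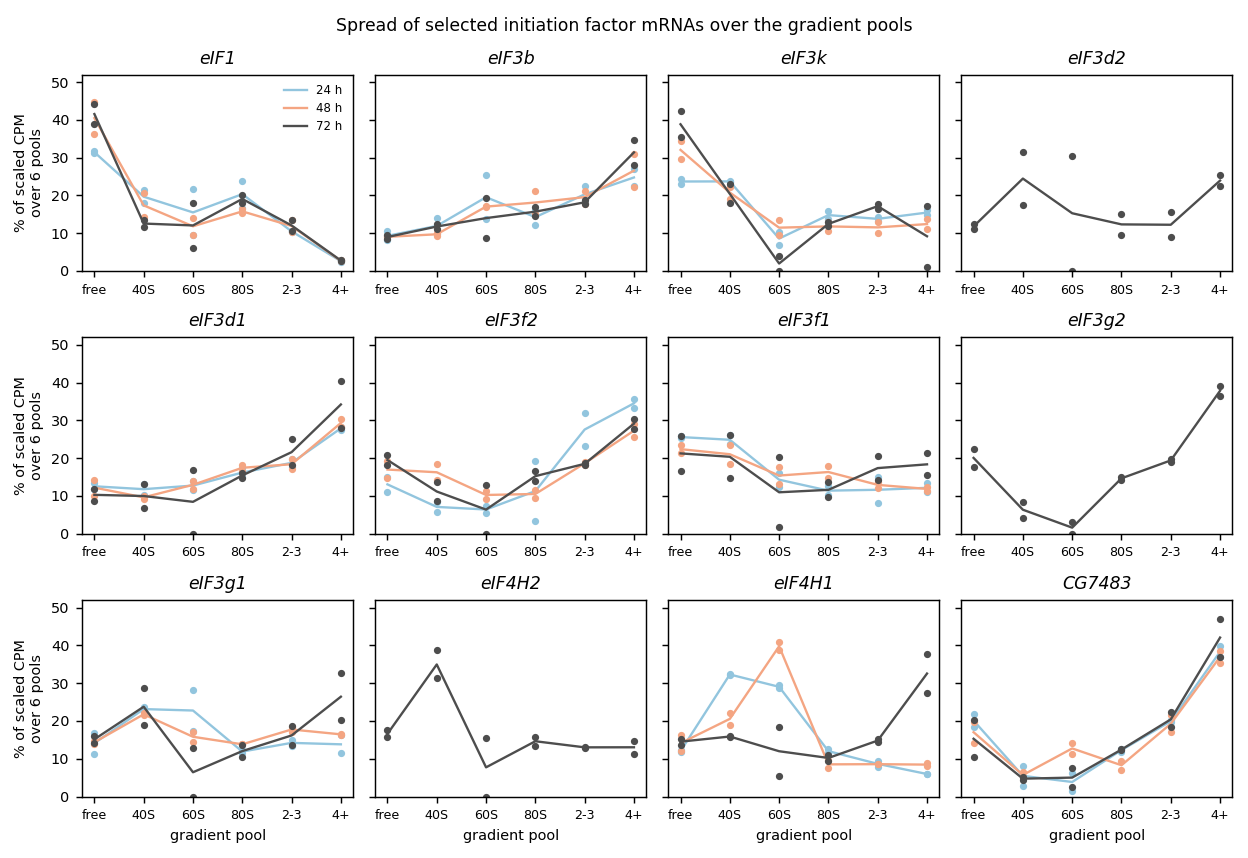
Share of a gene's scaled CPM, summed over the 6 gradient pools, that lies in each pool, for 12 members at 24, 48 and 72 h (72 h only for eIF3d2, eIF3g2 and eIF4H2). Points are libraries and lines join the means of 2 replicates. eIF1 is highest in the free pool and lowest in 4+ ribosomes at all 3 times, eIF3f2 peaks at 4+ ribosomes and eIF4H2 at 40S.

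The testis-type copies could be set beside their general copies in each pool. At 72 h eIF4H2 had 101 and 95.1 scaled CPM in 4+ ribosomes, against 139 and 113 in the free pool, and its 40S libraries were highest at 277 and 249. It made 18.9% and 12.3% of the eIF4H reads in 4+ ribosomes, against 39.0% and 29.1% in the free pool and 52.6% and 46.5% in 40S. The share of eIF4H2 was thus lower in 4+ ribosomes than in these 2 lighter pools, without overlap, and the difference was not tested.

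eIF3g2 had its highest level in 4+ ribosomes at 72 h, with 443 and 332 scaled CPM in 4+ ribosomes, against 215 and 189 in the free pool, and 102 and 36.3 in 40S. eIF3g1 had 709 and 638 in 4+ ribosomes, against 500.1 and 314 in the free pool, and 1002 and 371 in 40S. The share of eIF3g2 in the pair was 38.4% and 34.2% in 4+ ribosomes and 30.1% and 37.6% in the free pool, which overlap, and 9.25% and 8.92% in 40S. eIF3d2 had 69.8 and 60.7 in 4+ ribosomes, against 34.8 and 29.6 in the free pool, and eIF3d1 294 and 360.2 in 4+ ribosomes, against 92.1 and 105 in the free pool. None of the 4+ against free changes of eIF3d2 (1.01), eIF3d1 (1.72), eIF3g2 (0.92), eIF3g1 (0.76) and eIF4H2 (-0.36) passed the threshold at 72 h.

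The eIF3f pair could be followed at all 3 times. eIF3f2 had 105 and 111 scaled CPM in 4+ ribosomes, against 44.1 and 36.9 in the free pool, at 24 h, where eIF3f1 had 59.8 and 73.9 in 4+ ribosomes, against 138 and 143 in the free pool. The share of eIF3f2 in the pair was 63.6% and 60.0% in 4+ ribosomes, against 24.2% and 20.5% in the free pool, at 24 h. At 48 h it was 80.4% and 80.0% in 4+ ribosomes, against 64.3% and 49.4% in the free pool, and at 72 h 67.1% and 70.1% in 4+ ribosomes, against 63.0% and 48.9% in the free pool. In each case both 4+ libraries lay above both free libraries. The single-gene changes of eIF3f2 and eIF3f1 did not pass the threshold at any of the 3 times, and the shares were not tested.

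For eIF6 the gradient values need care. In the gradient files 67.2% of its reads lie over 500 nt past its annotated end, most often 2085 nt past it, where the gene ytr lies on the same strand. With reads up to 500 nt past the end, eIF6 had 122 and 126 scaled CPM in 4+ ribosomes, against 29.5 and 29.5 in the free pool, at 24 h, and 137 and 113 in 4+ ribosomes, against 133 and 67.5 in the free pool, at 72 h. In these values its pools were apart at 24 h and close at 72 h. The main test, which took all eIF6 reads, made no call at either time and does not bear on these values alone.

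Each deposited entry lists the positions of the 3′ ends, so the site at which the members' mRNAs end could be compared too. In lysates 21 of 35 members ended at 1 site with at least 5% of their reads, 9 at 2 sites, 4 at 3 and 1 at 5. Sites are given as the distance past the stop codon. Over 14 members with a testable pair of sites, 2 moved towards the proximal site and 0 towards the distal one at 48 h, and the same numbers at 72 h, where 35.9% and 29.6% of all pairs were called (31.8% and 26.1% towards the proximal site, 4.02% and 3.53% towards the distal one). The members' median change in log2 of proximal over distal was 0.22 at 48 h and 0.47 at 72 h, against 1.00 and 0.72 over all pairs.

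Both pairs that passed belonged to eIF3. eIF3a, the largest subunit, ends at 215 or 524 nt. Its distal share was 17.4% and 9.54% of reads at 0 h, 8.99% and 6.95% at 16 h, 4.20% and 6.78% at 24 h, 3.20% and 3.76% at 32 h, 1.91% and 2.12% at 48 h, and 3.11% and 1.92% at 72 h. eIF3k ends at 92 or 218 nt, with distal shares of 17.4% and 4.60% at 0 h, 5.31% and 3.58% at 16 h, 3.29% and 1.53% at 24 h, 1.81% and 1.62% at 32 h, 0.88% and 1.49% at 48 h, and 1.95% and 1.59% at 72 h. For both genes every library from 32 h on lay below both 0 h libraries.

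The ratio of proximal to distal reads rose for eIF3a by 2.80 ± 0.52 at 48 h (SE, log2, adjusted p = 0.0023) and 2.47 ± 0.52 at 72 h (adjusted p = 0.0054), and for eIF3k by 3.10 ± 0.71 (adjusted p = 0.0071) and 2.50 ± 0.70 (adjusted p = 0.022). At 72 h the eIF3a call ended without replicate 2 of 72 h, and the eIF3k call without replicate 1 of 0 h or either 72 h library. Replicate 1 of 0 h, which stands apart in levels, also held the highest distal shares of both genes.

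The distal site held more in eIF1A, whose sites lie at 476 and 1014 nt, with the distal one holding 78.8% and 21.3% of reads at 0 h, 57.9% and 28.3% at 16 h, 22.6% and 28.1% at 24 h, 15.1% and 13.1% at 32 h, 10.5% and 11.9% at 48 h, and 16.9% and 15.3% at 72 h. The 0 h and 16 h libraries lay above those of 32, 48 and 72 h, but with the replicates of 0 h so far apart neither late change passed (adjusted p = 0.065 at 48 h and 0.14 at 72 h). eIF2gamma, which rose in level, used its site at 183 nt for 67.9% and 76.9% of reads at 72 h, against 70.9% and 27.2% at 0 h, which overlap. eIF2alpha had reads at 137 nt in 7 lysate libraries and at 205 nt in 4, and in no library at both, so its site change was not read.

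**Figure D5:**
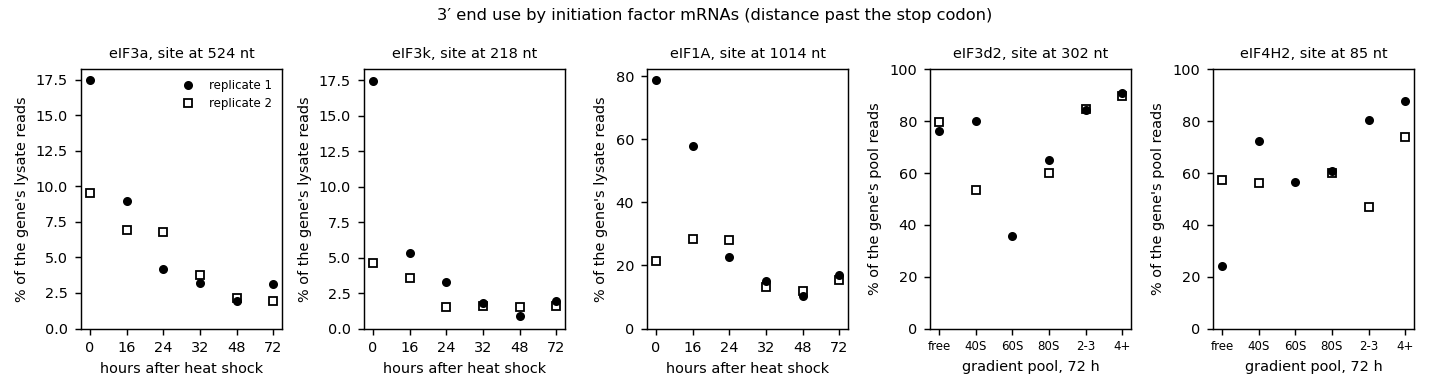
Share of a gene's reads at a 3′ end site, a point per library. The 3 panels on the left give the distal sites of eIF3a (524 nt), eIF3k (218 nt) and eIF1A (1014 nt) in lysates over time, and the 2 panels on the right the proximal sites of eIF3d2 (302 nt) and eIF4H2 (85 nt) over the gradient pools at 72 h. Each distal share is highest in replicate 1 of 0 h, and the eIF3d2 share in 4+ ribosomes, 90.9% and 89.7%, is above that in the free pool.

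In the gradients at 72 h 23 members had a testable pair, and 0 passed in limma, with 4 at an unadjusted p under 0.05 and 4.63% of all pairs called (1.83% towards the proximal site, 2.80% towards the distal one). The count stayed at 0 when every unlisted site was entered at a fixed value, and was 1 without replicate 2 of 4+ ribosomes. The most negative change was that of eIF1 (-5.36 ± 1.94, adjusted p = 0.13). eIF4H2 ended at 85 nt in 87.7% and 73.8% of reads in 4+ ribosomes, against 24.0% and 57.3% in the free pool, and its change of 3.11 ± 1.05 in log2 of proximal over distal was the largest upward (SE, adjusted p = 0.13). eIF3d2 ended at 302 nt in 90.9% and 89.7% of reads in 4+ ribosomes, against 76.3% and 79.8% in the free pool (1.39 ± 0.78, adjusted p = 0.39). In both genes the 4+ libraries lay above the free libraries. In lysates of 72 h eIF4H2 had 43.1% and 38.4% of its reads at 85 nt and eIF3d2 43.3% and 48.6% at 302 nt.

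eIF4A, singled out after its values were seen, ends at 33, 389 or 589 nt in the gradient files. At 72 h the site at 589 nt held 6.13% and 8.94% of its reads in 4+ ribosomes, against 25.3% and 18.1% in the free pool, and at 48 h 5.71% and 6.71% in 4+ ribosomes, against 27.3% and 18.3% in the free pool. At 24 h the values were 12.8% and 9.91% in 4+ ribosomes, against 28.4% and 0% in the free pool, which overlap. The pair tested for eIF4A in the gradients was 33 against 389 nt, so this difference was not tested.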

How the data were processed

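The authors deposited, for each of 48 libraries, the reads counted at 3′ end positions past annotated stop codons, packed as position and count text, per the labels' protocols; this is not a plain count column and has no normalization. Per the submitters' processing notes, Bowtie 0.12.8 and dm6 were used. Lysate keys matched dm6 stop codons in 24.06% and 23.06% of cases by strand, so lysate sites are given only as distances. No deposited position had under 20 reads in lysates or 10 in gradients.

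Reads were summed per gene, symbols were matched to RefSeq, genes with no entry were entered at 10 (lysates) or 5 (gradients) reads, and genes in the X-linked gaps of the 0 h libraries, 3 members among them, were set missing there. Libraries were scaled by trimmed means (30% of ratios, 5% of levels). Levels were tested with limma 3.58.1 (voom weights, R 4.3.3) over all groups and all genes, with Benjamini-Hochberg adjustment at 0.05. Sites within 50 nt were joined, and log2 ratios of the main pair (at least 60 or 30 reads) were tested with limma. A library whose unlisted site would lie under the listing minimum was left out of that pair, a change from the planned fixed entry made after simulations gave false calls. Checked on simulated data were the 72 h level tests in lysates and gradients and the 72 h site tests. The other times, the difference between 72 h and 24 h, and genes missing at 0 h were not simulated. Python 3.11.15 was used with pandas 2.3.3, numpy 2.4.6 and matplotlib 3.10.9.

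The main tests did not pair libraries by replicate number. Deviations of same-numbered libraries correlated at -0.0993 to 0.276 in lysates and -0.132 to 0.305 in gradients, which cannot exclude a pairing. Shares over the 6 pools were summed by replicate number, whereas the 4+ against free tests took the pools as independent. The members and lists were chosen with earlier results of these data known. Per-library values are given for the 4 pairs of copies, the 6 largest rises and falls called at 72 h, the 4 largest called site shifts each way, and the 4 highest and lowest called gradient changes at 72 h. The libraries of a group are biological replicates per the labels, and intervals of counting error are not given.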

Additional observations from a re-analysis of the deposited data

Results flagged for a closer look

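The change of eIF4H1 in 4+ ribosomes over the free pool differed between 72 h and 24 h, by 2.16 on the log2 scale (limma, SE 0.63, adjusted p = 0.036). It was 1.15 at 72 h and -1.01 at 24 h, neither past the threshold by itself. Both 72 h libraries of 4+ ribosomes lay above both free libraries, and both 24 h libraries below. The call ended without any one of the 8 libraries, and with unlisted genes entered at 0 reads.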

How the results depend on the processing

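Counts of members called moved with scaling, with the libraries that share the fit and with single libraries. By total counts alone they were 1, 7, 13, 19 and 28 (16 h, 32 h, and gradients at 24, 48 and 72 h), and 2 for the difference between 72 h and 24 h. Fitted on no libraries other than those compared, they were 0, 5 and 5 (32, 48 and 72 h), 12, 11 and 26 in gradients and 5 for the difference. A filter at 10 CPM and limma trend each gave 5 at 32 h, unlisted genes at 0 reads gave 0 for the difference, and 16 h as the baseline, chosen after seeing the data, gave 11 at 72 h. Without the shallow 72 h 60S library the gradient counts were 12, 12 and 19, and 7 for the difference. Leaving out one library of the groups compared gave 0 to 8, 0 to 14, 0 to 13, 12 to 22 and 9 to 25 in lysates (16, 24, 32, 48 and 72 h), 1, 2 to 3 and 4 to 8 in gradients, 0 to 1 for the difference, and 2 to 4, 0 to 3 and 0 to 1 for sites (48 h, 72 h, gradients). The highest lysate counts came without replicate 2 of 0 h.

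With a replicate block the counts were 0, 0, 4, 15 and 19 in lysates, 2, 5, 10 and 1 in gradients, and 2, 2 and 0 for sites. Entering the X-gap genes as unlisted, chosen after seeing the data, turned eIF4H1 to 3.89, 3.72 and 4.15 (32, 48 and 72 h) and eIF5 to 3.36 at 48 h, since the entered value stands for uncovered genes. Total counts turned eIF3c to 0.25 and eIF6 to 0.24 at 48 h. Of 1578 values for single members, 1370 kept direction and side of the threshold, 166 fell short of it, 36 passed it newly and 6 turned. Causes were not tested beyond this. Depth limits the 3 late copies before 48 h, which may lie under the listing minimum.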
